A study of Mus musculus with 20 samples.

Results

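Cytosolic ribosomal protein genes encode the protein parts of the cell's main ribosome, as distinct from the separate set of ribosomal proteins used inside mitochondria. Members were the protein-coding genes whose symbol is Rpl or Rps followed by a number and at most an a, x or y, together with Rpsa, Rplp0, Rplp1 and Rplp2, and without a pseudogene suffix. The rule found 76 of the 49671 gene IDs in the RNA files, 30 for the small and 46 for the large subunit. It leaves out ribosomal protein genes named otherwise, such as Rps3a1, Fau and Rack1. The small subunit reads the messenger RNA, and the large subunit forms the peptide bonds. Messenger RNAs of these genes typically begin with a run of pyrimidines at the start site, through which mTOR signalling adjusts their translation, and blood stem cells are known for a low and tightly held rate of protein synthesis. Loss of a single copy of some members causes anaemia in patients (Diamond-Blackfan anaemia), and these genes have many processed pseudogenes, copies that reads can also match.

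The study asked what loss of Kdm6b, a demethylase of histone H3 lysine 27, does to haematopoietic stem cells (HSCs). All mice were on a C57BL/6 background at 8 weeks of age. Those of the RNA libraries carried Vav-CRE, a Cre recombinase driven by the blood-cell promoter Vav. Control mice were Vav-CRE:Kdm6b+/+ and Kdm6b-KO mice Vav-CRE:Kdm6bfl/fl, so the controls carry Cre but no floxed allele. Each of the 3 RNA libraries per genotype came from marrow pooled from 3 male and 3 female mice and sorted as Lin-, cKit+, Sca1+, CD150+, CD48- cells, with 3 to 5 ng of RNA as input, while 6 ATAC libraries from 10000 sorted HSCs each (3 titled Control, 3 titled 6bKO) measured open chromatin. The genotype label of all 6 ATAC samples reads wild-type, so the ATAC groups rest on the titles, and 8 chromatin immunoprecipitation and input samples were not analysed here.

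The RNA libraries held 6793873 to 19336121 gene counts. Kdm6b itself, counted over the whole gene, stood at 92.0, 282 and 221 CPM (a gene's counts per 1000000 counts of its library) in Control 1 to 3, and at 142, 202 and 191 CPM in Kdm6b-KO 1 to 3. These groups overlapped, and a whole-gene count does not separate the floxed part, so it is no check of the labels. None of 14 HSC markers was at 0 in any library, and their summed level was 4749 to 7349 CPM for Control, against 5337 to 5650 CPM for Kdm6b-KO. Markers of other blood cells were present as well. The 15 erythroid markers, of which Slc4a1 was at 0 in some libraries, summed to 8374 to 11274 CPM for Control, against 4541 to 5704 CPM for Kdm6b-KO. Car2 carried most of this sum, and without it the other erythroid markers summed to 513, 322 and 438 CPM in Control 1 to 3 and to 334, 87.7 and 127 CPM in Kdm6b-KO 1 to 3, which overlap. Of the 15, the groups did not overlap in 4 that were lower in Kdm6b-KO (Gata1, Car2, Ermap and Rhag) and in 1 that was higher (Hbb-bt). Among all genes tested between genotypes, the groups did not overlap in 9.49% that were lower and in 11% that were higher. The 18 neutrophil and granulocyte markers, of which Ly6g, Mmp8 and Mmp9 were at 0 in some libraries, summed to 3838, 1240 and 2194 CPM in Control 1 to 3 and to 4516, 213 and 215 CPM in Kdm6b-KO 1 to 3. The part of these other cells in the members' values was not tested, and fewer cells of a type and less RNA per cell cannot be told apart in such bulk samples.

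Start sites of members the results turn on are shown first, because the sequence around the start is what these genes are known to share. RefSeq promoter windows of the GRCm38.p6 build matched 56 of the 76 members. Each line gives the 50 bases before the annotated start and the 20 bases from it, 5′ to 3′ on the gene's strand, with the longest run of C or T in capitals. Rpl4 had the highest RNA level of all members, Rps27, Rplp0, Rpl18, Rps25 and Rpl35 had the smallest unadjusted p between genotypes, Rpl38 the lowest fold change, and Rpl26 lies nearest to Kdm6b.
Rpl4 (GRCm38.p6 chr9:64173337-64173406, plus strand): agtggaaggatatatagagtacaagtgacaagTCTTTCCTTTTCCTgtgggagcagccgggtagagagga
Rps27 (GRCm38.p6 chr3:90213629-90213698, minus strand): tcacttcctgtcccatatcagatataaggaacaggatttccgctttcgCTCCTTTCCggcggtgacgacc
Rplp0 (GRCm38.p6 chr5:115559417-115559486, plus strand): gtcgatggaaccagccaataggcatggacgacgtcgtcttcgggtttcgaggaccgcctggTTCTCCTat
Rpl18 (GRCm38.p6 chr7:45718021-45718090, plus strand): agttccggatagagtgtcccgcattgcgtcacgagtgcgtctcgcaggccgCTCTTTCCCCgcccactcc
Rps25 (GRCm38.p6 chr9:44407664-44407733, plus strand): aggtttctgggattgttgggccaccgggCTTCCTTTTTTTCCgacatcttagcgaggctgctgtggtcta
Rpl35 (GRCm38.p6 chr2:39005112-39005181, minus strand): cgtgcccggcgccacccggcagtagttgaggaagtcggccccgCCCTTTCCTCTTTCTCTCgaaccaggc
Rpl38 (GRCm38.p6 chr11:114668530-114668599, plus strand): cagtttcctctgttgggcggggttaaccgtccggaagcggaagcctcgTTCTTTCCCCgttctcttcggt
Rpl26 (GRCm38.p6 chr11:68901516-68901585, plus strand): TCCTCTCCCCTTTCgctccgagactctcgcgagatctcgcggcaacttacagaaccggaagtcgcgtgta
In Rps27, Rpl35 and Rpl38 the run spanned the annotated start, and in Rpl18 it began just after it. In Rpl4 and Rps25 it ended a few bases before the start, while in Rpl26 it lay at the upstream edge of the window. Rplp0 had its longest run, 7 bases, downstream of the start.

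Pyrimidine runs were more common at member starts than at other starts. A run of at least 8 C or T within 30 bases either side of the start was present in 29 of 56 members (51.8%), against 21.9% of 17436 other protein-coding genes. The median longest run in that stretch was 8 bases in members and 5 bases in the others, and the longest in a member was 21 bases, in Rpl7a. Over the whole 300-base window the forward strand held CTTTCC in 35.7% of members and 13.8% of the others, and CTCTTTC in 21.4% and 3.65%; the letters of these motifs overlap. On either strand, the ETS-type motif CCGGAAG was present in 39.3% of members and 11.8% of the others, GGGCGG (SP1) in 58.9% and 46.3%, and AAGATGG (YY1) in 16.1% and 6.32%. The TATA motif TATAAA, searched on the forward strand, was present in 8.93% and 8.99%, and on either strand the E-box CACGTG in 8.93% and 7.91% and GCGCATGC (NRF1) in 3.57% and 3.61%. Median GC content was similar, 57.5% in members and 56.3% in the others. The other genes were taken whatever their RNA level, and members were not compared with expressed genes alone. These are matches of letters and were not tested for function.

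All 76 members passed the filter on low counts, but their RNA levels ranged from 2.66 CPM for Rpl24 to 3141 CPM for Rpl4. Of the members, 6 reached 1000 CPM, 28 lay from 100 to 1000 CPM, 30 from 10 to 100 CPM and 12 under 10 CPM. Among the highest small-subunit genes were Rps3 (1654 CPM as the mean of 6 libraries), Rps9 (1159), Rps14 (1145) and Rps19 (643). The highest large-subunit genes after Rpl4 were Rpl32 (1556 CPM), Rplp0 (868), Rpl8 (783), Rpl14 (703) and Rpl7 (459). Near the other end stood Rps6 (4.22 CPM), the small-subunit protein phosphorylated downstream of mTOR, Rps29 (3.84), Rpl23a (3.46) and Rpl24. Per kb of annotated gene span, introns included, levels still ranged from 0.516 CPM for Rpl24 to 607 CPM for Rpl4. As background, a ribosome holds most of these proteins in equal numbers; protein was not measured here.

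**Figure D1:**
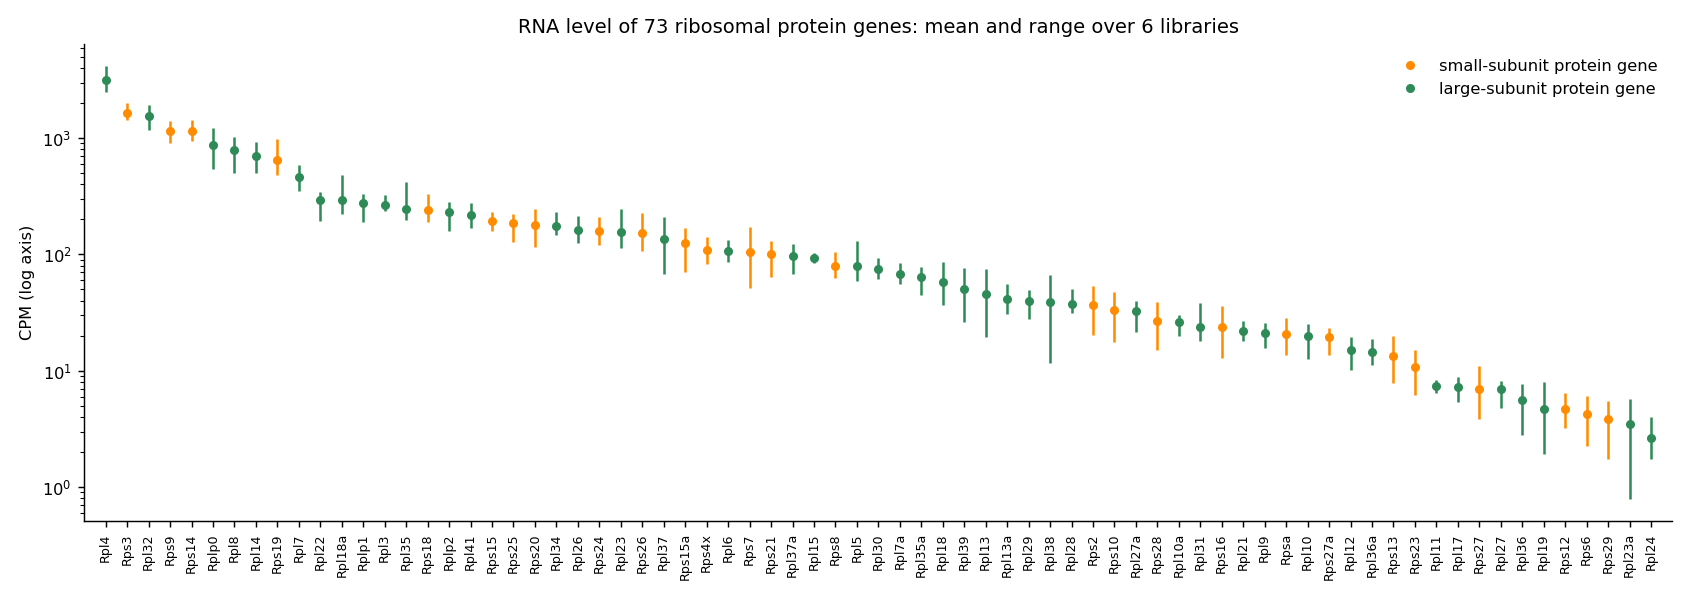
Mean RNA level (points, CPM on a log axis) and the range over the 6 libraries (lines) of 73 of the 76 members, from highest to lowest. Levels run from 3141 CPM for Rpl4 to 2.66 CPM for Rpl24, and small- and large-subunit genes are mixed along the order.

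The closing lines of the files list 37.6% to 46.8% of their entries as without a unique alignment, apart from the gene counts. RefSeq names 315 pseudogenes for the members, at least 1 for 62 of them and the most, 23, for Rpl31 and Rps12. The 14 members without a named pseudogene had a median of 150 CPM per kb of gene span, the 32 with 1 to 3 a median of 25.0, and the 30 with 4 or more a median of 10.3. Across the 76 genes Spearman's rho between the number of named pseudogenes and CPM per kb of span was -0.47, given as a description, since all genes share the same 6 libraries. The order was not strict, because Rpl24 at 0.516 CPM per kb has no pseudogene named after it, while Rps19 at 123 CPM per kb has 13. Counts on genes with a named pseudogene suffix were few, 0.0147% to 0.0348% of gene counts. How reads with several alignments bear on a member's level was not tested, so the levels of members with near-identical copies are uncertain.

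Together the members took a few percent of gene counts. Their share was 2.29%, 1.44% and 1.72% in Control 1, 2 and 3, and 2.25%, 1.89% and 2.15% in Kdm6b-KO 1, 2 and 3. Control held both the highest and the lowest library, so the groups overlapped. The mean was 1.82% ± 0.44 in Control and 2.10% ± 0.19 in Kdm6b-KO (SD, n = 3), a difference of 0.281 percentage points (exact permutation test, two-sided, p = 0.4, adjusted p = 0.9 over 4 such tests). The smallest p that 3 against 3 libraries allow is 0.1. Small-subunit genes took 44.6%, 43.6% and 42.5% of the members' counts for Control 1 to 3, against 42.6%, 43.5% and 43.2% for Kdm6b-KO 1 to 3 (exact permutation p = 0.6, adjusted p = 0.9). Genes with a member's symbol and a pseudogene suffix took 0.0267% ± 0.0073 of gene counts in Control and 0.0236% ± 0.0081 in Kdm6b-KO (SD, n = 3, exact permutation p = 0.7, adjusted p = 0.9). Pseudogenes with other symbols were not part of this share. The 5 highest members made up 43.5% to 47.8% of the members' counts in every library.

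**Figure D2:**
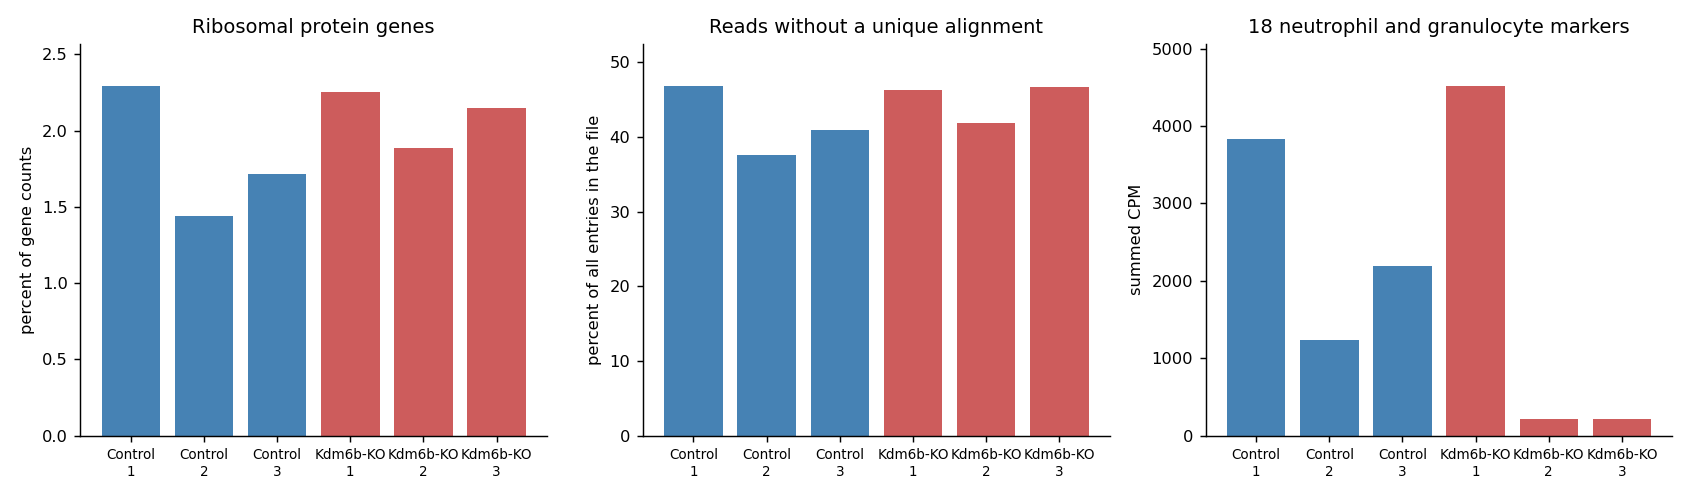
Bars give, for each of the 6 RNA libraries (blue Control, red Kdm6b-KO), the members' share of gene counts, the share of entries without a unique alignment, and the summed CPM of 18 neutrophil and granulocyte markers. Control 1 and Kdm6b-KO 1 have the largest member shares (2.29% and 2.25%) and Control 2 the smallest (1.44%).

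Differences between libraries of the same genotype were broad across the set. Control 1 was the library with the highest CPM for 34 of the 76 members (44.7%, against 21.7% of all tested genes), and Control 2 the library with the lowest for 39 (51.3%, against 21.3%). Relative to each gene's own mean log2 CPM, the median member stood at 0.29 in Control 1, -0.28 in Control 2 and -0.14 in Control 3, and at 0.25, -0.02 and -0.05 in Kdm6b-KO 1, 2 and 3, while the median of all tested genes lay between -0.01 and 0.04 in every library. Control 1 and Kdm6b-KO 1, where the members were highest, also had the highest neutrophil and granulocyte markers and the largest shares of mitochondrially encoded RNA, 3.48% and 3.12% of gene counts against 1.19% to 2.08% in the other 4. Entries without a unique alignment made up 46.8%, 37.6% and 40.9% for Control 1 to 3, against 46.2%, 41.9% and 46.7% for Kdm6b-KO 1 to 3, so Control 2 was lowest by this measure too. The part of these library differences in the members' levels was not tested. Some members went against the set. Rpl13 was lowest in Control 1 and Kdm6b-KO 3 (19.4 and 20.7 CPM) and lay from 45.9 to 75.0 CPM in the other 4, and Rpl5 was highest in Control 2 at 130 CPM; Rpl13 was chosen here after its values were seen.

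**Figure D3:**
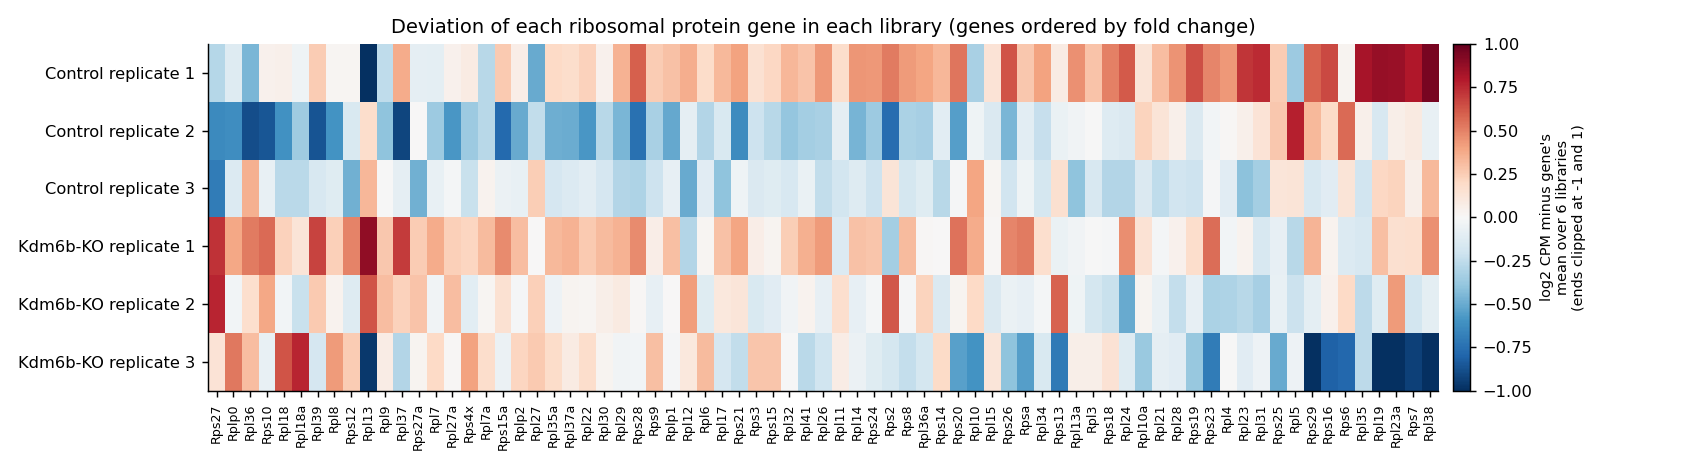
Each column is 1 of 73 members and each row a library; colour gives log2 CPM minus the gene's mean over the 6 libraries, clipped at -1 and 1, and genes run from the highest to the lowest fold change of Kdm6b-KO over Control. Control 1 is above the mean (red) and Control 2 below it (blue) for most members, which is a difference within the Control group.

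Between genotypes, no member changed at an adjusted p under 0.05. With edgeR's quasi-likelihood test and Benjamini-Hochberg adjustment over 15185 tested genes, 0 of 76 members were called, where 0.461% of all tested genes were. DESeq2 called 0 members (background 3.08%) and limma-voom 0 (background 0.277%). At an unadjusted p under 0.05, edgeR counted 3 members higher in Kdm6b-KO (background 7.63%) and 2 lower (background 7.22%), DESeq2 7 of 76 in either direction (9.21%, background 15.4%) and limma-voom 5 (6.58%, background 16.2%). The groups did not overlap in 6 members that were higher in Kdm6b-KO (Rpl7, Rpl8, Rpl9, Rplp0, Rps27 and Rps27a; background 11%) and in 1 that was lower (Rps25; background 9.49%), both below the background share. The log2 fold change of Kdm6b-KO over Control was above 0 for 49 members and below 0 for 27, with a median of 0.08, against 0.00 for all tested genes. Of the members, 70 (92.1%) lay within 1.5-fold either way, as did 77.9% of all tested genes. At 100 CPM or more the shares were 94.1% of members and 89.0% of all tested genes. Members under 10 CPM had a share of 75.0%, and mitochondrial ribosomal protein genes one of 93.4%, so the share is not particular to the members. The 95% interval lay between -1 and 1 on the log2 scale for 54 of the 76. Small-subunit genes had a median log2 fold change of 0.03 and large-subunit genes of 0.13. Among genes of at least 100 CPM, the 34 members had a median of 0.08 and all 2439 tested genes one of -0.14. The members' median depended on single libraries of either genotype. It was 0.29 without Control 1, -0.05 without Control 2 and 0.01 without Control 3. Without Control 1 and Kdm6b-KO 1 together it was 0.23, and 0 members were called in each of these cases. Without Kdm6b-KO 1 the median was 0.01 and without Kdm6b-KO 3 it was 0.16. With library totals in place of TMM scaling (trimmed mean of M values), the median was 0.22 for members and 0.15 for all tested genes, a shift of the whole table.

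**Figure D4:**
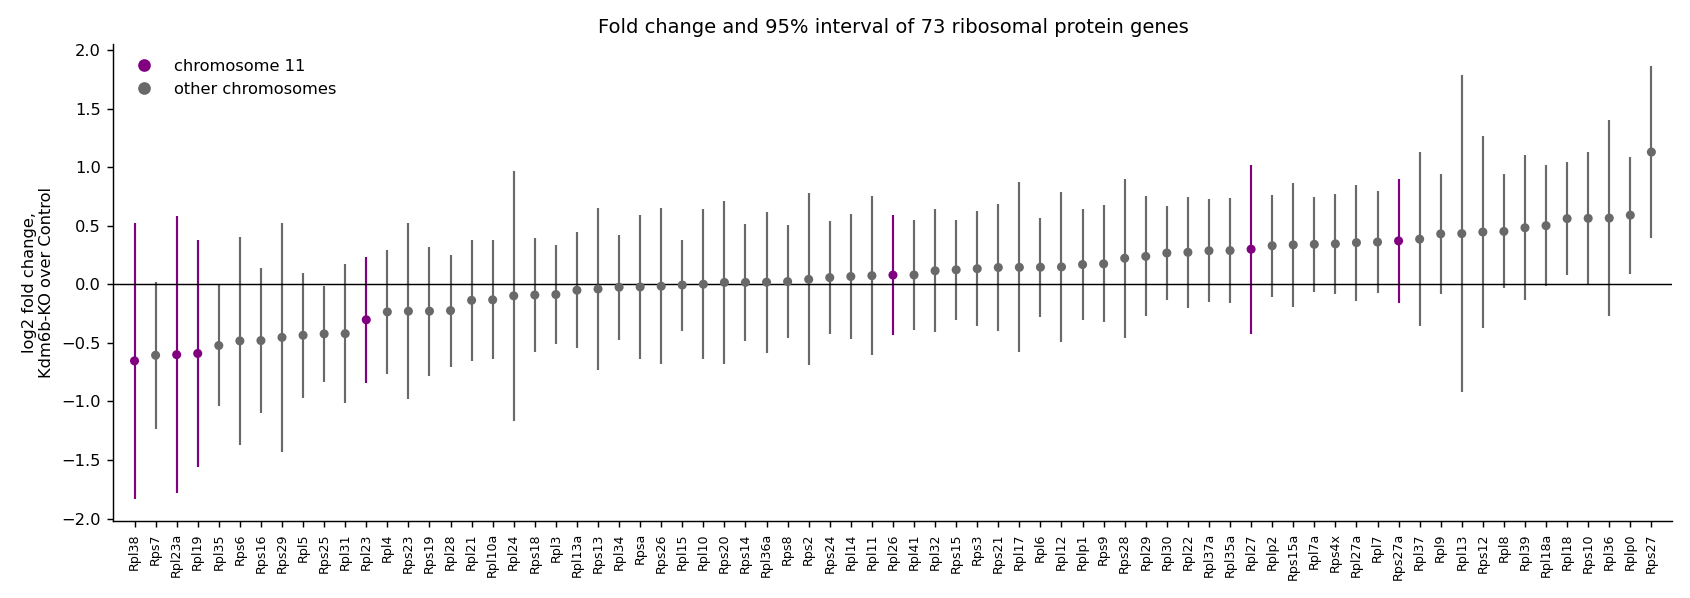
Points give the log2 fold change of Kdm6b-KO over Control for 73 of the 76 members and lines the 95% interval from the edgeR fit; the 7 members on chromosome 11 are purple. Values run from -0.65 for Rpl38 to 1.13 for Rps27, and most intervals include 0.

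The largest difference was in Rps27 (ENSMUSG00000090733, chromosome 3, 90212667 to 90213648), a small-subunit protein with a zinc finger. It was counted at 5.22, 4.07 and 3.87 CPM in Control 1 to 3 and 10.7, 11 and 7.07 CPM in Kdm6b-KO 1 to 3, from 32 to 143 reads per library. All 3 Kdm6b-KO libraries were above all 3 Control libraries, at a level low among the members. The log2 fold change was 1.13 ± 0.35 (SE; edgeR adjusted p = 0.163), with an adjusted p from 0.0656 to 0.45 over the alternatives. Its near copy Rps27l stood at 167, 104 and 108 CPM across the Control libraries, against 109, 107 and 88.4 CPM across the Kdm6b-KO libraries (log2 fold change -0.32, edgeR adjusted p = 0.515). The retrogene Rps27rt was at 5.99, 2.29 and 3.58 CPM in Control 1 to 3 and 3.23, 2.62 and 0.445 CPM in Kdm6b-KO 1 to 3 (log2 fold change -0.94, edgeR adjusted p = 0.518). How reads that match more than 1 of these copies bear on the counts was not tested, so the value of Rps27 is uncertain.

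Rplp0, on which the 2 acidic stalk proteins Rplp1 and Rplp2 assemble, was the highest member among those with a low unadjusted p. It was at 768, 545 and 765 CPM across the Control libraries, against 1094, 821 and 1213 CPM across the Kdm6b-KO libraries, without overlap. The log2 fold change was 0.59 ± 0.23 (edgeR adjusted p = 0.266). Its partners overlapped between genotypes, Rplp1 with 331, 190 and 254 CPM in Control 1 to 3 and 333, 271 and 267 CPM in Kdm6b-KO 1 to 3 (log2 fold change 0.17), and Rplp2 with 237, 160 and 215 CPM against 281, 225 and 263 CPM (log2 fold change 0.33). Rplp0 is often used as a reference gene in quantitative PCR. Rpl18, a large-subunit gene, was at 57.7, 36.6 and 46.2 CPM across the Control libraries, against 65.7, 54.8 and 86.3 CPM across the Kdm6b-KO libraries, where only Control 1 reached into the range of the other group (log2 fold change 0.56 ± 0.23, edgeR adjusted p = 0.277). Also among the 5 highest fold changes of members of at least 5 CPM were Rpl36, at 3.84, 2.80 and 6.87 CPM in Control 1 to 3 and 7.69, 5.99 and 6.63 CPM in Kdm6b-KO 1 to 3, and Rps10, at 32.9, 17.5 and 30.3 CPM against 47.4, 41.8 and 30.3 CPM. Both overlapped (log2 fold change 0.56 for each). Rpl8, a core protein of the large subunit, was at 775, 505 and 705 CPM for Control 1 to 3 and at 901, 786 and 1027 CPM for Kdm6b-KO 1 to 3, without overlap (log2 fold change 0.45, edgeR adjusted p = 0.374). Rpl7 was at 423, 352 and 429 CPM, against 586, 441 and 519 CPM in the same order, also without overlap (log2 fold change 0.36, edgeR adjusted p = 0.434).

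On the lower side, Rps25, a small-subunit protein known for its part in internal initiation of viral messages, was at 219, 221 and 199 CPM across the Control libraries, against 173, 174 and 129 CPM across the Kdm6b-KO libraries. The groups did not overlap (log2 fold change -0.42 ± 0.19, edgeR adjusted p = 0.325); Rps25 is outside the rule for named genes and is named for its count. Rpl35 was at 422, 247 and 209 CPM in Control 1 to 3 and 213, 199 and 198 CPM in Kdm6b-KO 1 to 3, where Control 1 alone stood far above the rest (log2 fold change -0.52 ± 0.24, edgeR adjusted p = 0.334). Rps7, a small-subunit protein that can bind Mdm2, was at 170, 104 and 102 CPM across the Control libraries, against 110, 86.2 and 51.0 CPM across the Kdm6b-KO libraries (log2 fold change -0.61, edgeR adjusted p = 0.35). Rps16 was at 35.8, 25.8 and 20.8 CPM in Control 1 to 3 and 23.1, 23.2 and 12.8 CPM in Kdm6b-KO 1 to 3, overlapping (log2 fold change -0.48). In Rps7 and Rps16 the lowest value was in Kdm6b-KO 3, and the highest in Control 1.

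Members known from blood disease and the p53 checkpoint did not pass the test. Rps19, the gene most often mutated in Diamond-Blackfan anaemia, was at 976, 564 and 540 CPM across the Control libraries, against 705, 590 and 481 CPM across the Kdm6b-KO libraries (log2 fold change -0.23, 95% interval -0.78 to 0.32). Rps14, whose loss of a copy causes the anaemia of the 5q- syndrome, was at 1429, 1052 and 936 CPM in Control 1 to 3 and 1140, 1024 and 1292 CPM in Kdm6b-KO 1 to 3 (log2 fold change 0.02, interval -0.48 to 0.51). Both spans overlapped. Rpl5 and Rpl11 bind Mdm2 together with the small ribosomal RNA of the large subunit. Rpl5 was at 59.1, 130 and 83.0 CPM across the Control libraries, against 62.7, 65.4 and 73.3 CPM across the Kdm6b-KO libraries (log2 fold change -0.43, interval -0.97 to 0.10). Rpl11 was at 8.29, 6.86 and 6.43 CPM in Control 1 to 3 and 6.64, 8.28 and 7.72 CPM in Kdm6b-KO 1 to 3 (log2 fold change 0.07, interval -0.61 to 0.75). Rpsa, also known as the laminin receptor, was at 24.1, 18.6 and 19.4 CPM across the Control libraries, against 28.7, 18.9 and 13.6 CPM across the Kdm6b-KO libraries (log2 fold change -0.02, interval -0.64 to 0.59). None of these intervals excludes 0, and the narrowest of them, for Rps14, leaves room for changes of up to 0.51 on the log2 scale.

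Several members have a paralog that can take the same place in the ribosome. Rpl22, whose loss blocks T cell development in mice, was at 338, 193 and 268 CPM in Control 1 to 3 and 347, 293 and 326 CPM in Kdm6b-KO 1 to 3 (log2 fold change 0.27). Rpl22l1 was at 95.8, 62.4 and 70.0 CPM across the Control libraries, against 97.5, 83.6 and 57.6 CPM across the Kdm6b-KO libraries (log2 fold change 0.07). Both genes overlapped between genotypes. Of 9 listed paralogs 6 were tested and 0 called (background 0.461%). Of those tested, 5 had a log2 fold change below 0 and the median was -0.27. The X-linked members Rpl10, Rpl36a, Rpl39 and Rps4x had log2 fold changes of 0.00, 0.02, 0.48 and 0.35, with adjusted p of 0.444 or more in the edgeR fit. Their autosomal paralogs were low in the case of Rpl39l, at 0 to 0.921 CPM, and Rpl10l, which had no count in any library. Rpl36al stood at 32.1 to 58.5 CPM and Rps4l at 11.9 to 15.8 CPM.

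The Kdm6b gene lies on chromosome 11, where 2.43% of 1110 tested genes were called, and 7 members lie there too. None of the 7 was called. Rpl26, 494 kb from Kdm6b and a regulator of p53 translation, was at 213, 126 and 133 CPM in Control 1 to 3 and 212, 149 and 138 CPM in Kdm6b-KO 1 to 3 (log2 fold change 0.08, interval -0.43 to 0.59). Rpl23a, the next nearest at 8.76 Mb, was at 5.68, 3.18 and 3.58 CPM across the Control libraries, against 3.41, 4.14 and 0.791 CPM across the Kdm6b-KO libraries (log2 fold change -0.60). Rpl38, known for its part in the translation of Hox messages and 45.2 Mb away, was at 66.5, 32.7 and 43.1 CPM in Control 1 to 3 and 47.1, 32.0 and 11.6 CPM in Kdm6b-KO 1 to 3 (log2 fold change -0.65, interval -1.83 to 0.52). Rpl19 (log2 fold change -0.59) and Rpl23 (-0.30) were also below 0, and Rpl27 (0.30) and Rps27a (0.37) above. The low value of Kdm6b-KO 3 was shared by Rpl38, Rpl23a and Rpl19, where it was the lowest of the 6. The median of the 7 was -0.30, against 0.08 for the 69 members elsewhere and 0.08 for all tested genes of chromosome 11. The difference between the 7 and the 69 was not tested.

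Genes that make or regulate ribosomes gave 0 calls in each list, under the same edgeR test, where 0.461% of all tested genes were called. At that share, 0 calls in lists of this size do not set these genes apart. Among 18 translation factors and other messages with a 5′ pyrimidine run, 14 had a log2 fold change above 0 and the median was 0.17, with 2 higher and 1 lower at an unadjusted p under 0.05, where 7.63% of all tested genes were higher and 7.22% lower by that rule. Eef2, the elongation factor that moves the ribosome along the message, was at 1720, 1502 and 1915 CPM across the Control libraries, against 2131, 2059 and 2987 CPM across the Kdm6b-KO libraries, without overlap (log2 fold change 0.48, adjusted p = 0.371). Eef1a1, which delivers transfer RNA, overlapped between genotypes (log2 fold change 0.30). The 15 genes of ribosomal RNA synthesis had a median of 0.01 and 0 members under an unadjusted 0.05; Rrn3, an initiation factor of RNA polymerase I, had a log2 fold change of -0.32 and Taf1d one of -0.20. The 39 ribosome assembly genes had a median of -0.05, with 25 below 0 and, by the same rule and against the same 7.63% and 7.22%, 4 higher and 0 lower, and the most abundant were the nucleolar proteins Ncl (log2 fold change -0.14) and Npm1 (-0.05). The 14 tested genes of mTOR signalling and control of these messages had a median of 0.06, with 7 above and 7 below 0. Their values ran from -0.67 to 0.93, with 1 higher and 1 lower by that rule, against the same 7.63% and 7.22%. Of these genes, Myc stood at -0.67 (adjusted p = 0.279) and Eif4e at -0.20. Among ribosomal proteins with other names, Rack1 had a log2 fold change of 0.26 and Fau one of -0.28. The 76 tested mitochondrial ribosomal protein genes had a median of -0.03, with 34 above and 42 below 0, and 5 higher and 5 lower at an unadjusted p under 0.05 (background 7.63% and 7.22%); of its most abundant genes, Mrps14 and Mrpl18 both had a log2 fold change of -0.39.

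Chromatin at member genes was open in most libraries. A gene end was counted as open where a deposited peak lay within 1 kb of either end of the annotated gene. By this count 63, 68 and 69 of the 76 members were open in the 3 libraries titled Control, and 61, 68 and 69 in the 3 titled 6bKO. The groups overlapped, with a mean of 66.7 ± 3.2 and 66.0 ± 4.4 members (SD, n = 3; exact permutation test, two-sided, p = 0.9, adjusted p = 0.9). The lists held 44739 to 69729 peaks, and in the same lists 50.2% to 61.4% of 21811 other protein-coding genes were open. ATAC read depth is not known, and its part in these counts was not tested. In all 6 libraries 58 members were open (76.3%), against 41.8% of all 21887 protein-coding genes with a position. Among other protein-coding genes that were tested in RNA the share was 67.8%, and among those of at least 100 CPM 78.0%. The share of members was 25 of 34 at 100 CPM or more, 25 of 30 from 10 to 100 CPM and 8 of 12 under 10 CPM (66.7%), against 46.8% of other tested genes under 10 CPM. The last share rests on only 12 members, and the RNA levels of members with near-identical copies are uncertain. No member was open in all 3 libraries of one title and in none of the other; of all protein-coding genes, 0.521% were so in the 6bKO direction and 0.0777% in the Control direction.

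Of the 18 members not open in all 6 libraries by the count at gene ends, some lacked a peak there in every list and some in part of them. No peak lay within 1 kb of an end in any library for 6 members, among them Rpl13a, Rpl15, Rpl17, Rps2 and Rps21. Rps2 nevertheless had a peak at its annotated start, which lies inside the gene span, in all 6 libraries, with a median percentile of 88.6 by the authors' fold enrichment. Rpl17 had a peak inside the gene span in all 6, and the nearest peak of Rpl13a, Rpl15 and Rps21 lay 1388 to 28237 bases from the gene. Rps29 was open in 2 libraries, Rpl6 in 3, Rpl19, Rpl22, Rpl3, Rpl8 and Rps4x in 4, and 5 members, among them Rpl32, Rpl35a, Rpl38 and Rps15, in 5. The peaks of Rpl22 lay at the downstream end of the gene, and its annotated start had a peak in 0 libraries. Rpl19 and Rpl38 have their annotated start inside the gene span. Rpl19 had a start peak in 4 libraries, not all of them the same as by gene ends, and Rpl38 in 6. The 2 libraries with a peak at Rps29 were titled 6bKO, with a fold enrichment of 5.38 and 5.08 as the authors' peak caller gave it.

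At the annotated starts of the 56 members with a promoter window, 85.7% to 92.9% had a peak within 1 kb, against 49.8% to 60.3% of 17436 other starts. Those other starts were taken whatever the RNA level of the gene. The summits lay close to the start. Their median position was -69.0 to -47.0 bases in members and -40.0 to -33.0 bases in the others, with negative values upstream. Start peaks of members were 412 to 600 bases wide by the median of each library, those of the others 432 to 636 bases. By the authors' fold enrichment, used only to rank peaks within a list, the median member start peak stood at the 72.7th to 88.5th percentile and the median of the others at the 75.6th to 84.7th, and that of the members was the higher in 4 of 6 libraries. The range among members was wide. Rps26, Rpl41 and Rpl27 had median percentiles of 99.3, 98.8 and 98.7 over the libraries with a start peak, and Rpl19 and Rpl18 had 19.6 and 41.9. Rps27 and Rplp0, whose starts are printed above, had a start peak in all 6 libraries, with median percentiles of 91.3 and 94.3.

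**Figure D5:**
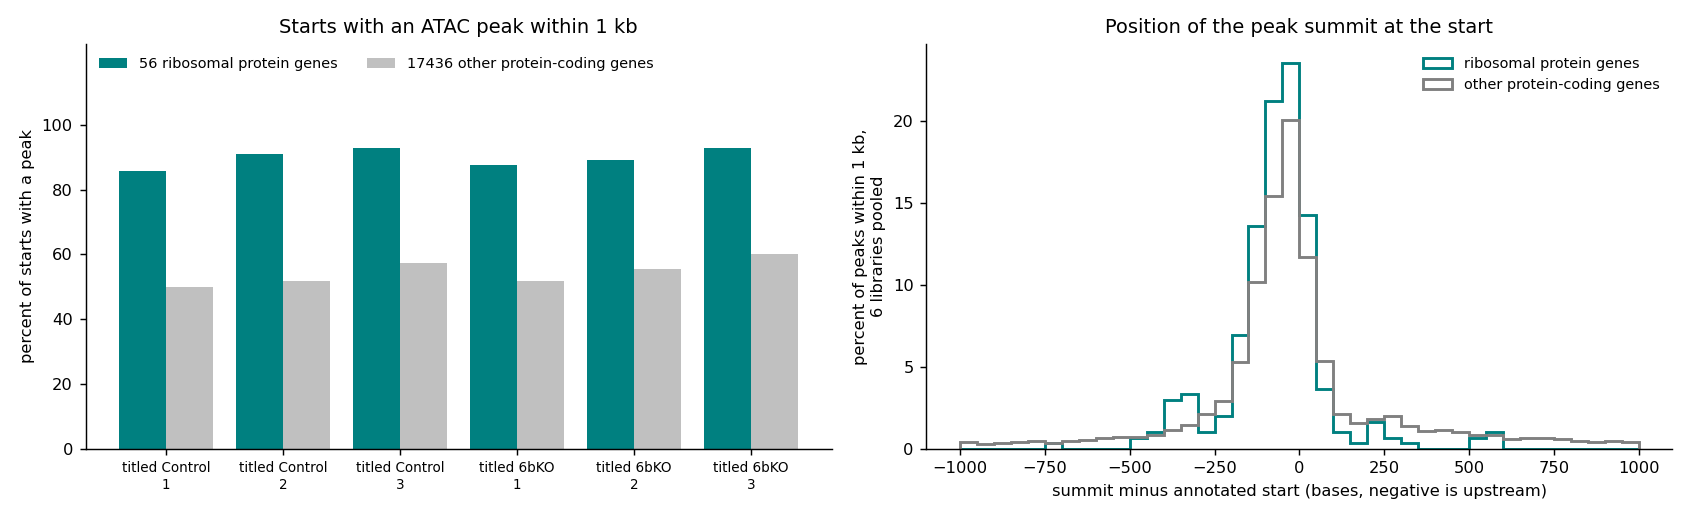
Left, percent of annotated starts with an ATAC peak within 1 kb in each of the 6 libraries, for 56 members (teal) and 17436 other protein-coding genes (grey). Right, position of the summit of the start peak relative to the start, as percent of such peaks with the 6 libraries pooled; both distributions centre just upstream of the start.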

How the data were processed

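RNA was measured in 6 HSC libraries and open chromatin in 6 ATAC libraries; the members and gene lists were chosen with earlier results of these data known. The deposited RNA files hold raw counts per Ensembl gene, and HTSeq 0.8.0, Partek 6.6, featureCounts 1.4.5 of Subread and STAR 2.0.4 are the tools in the submitters' processing notes, which state no roles. No source used here gives the strand setting or annotation release, so overlapping and antisense genes may share counts. Closing lines for unassigned reads (reads without a feature, 30.4% to 40.8%, and without a unique alignment) entered neither library sizes nor tests. A symbol was found for 49326 of 49671 gene IDs, and a position in a RefSeq table of GRCm38.p6, whose assembly corresponds to the mm10 build in the labels.

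The deposited ATAC peak lists, 1 per library, came from cutadapt 1.16, BWA 0.7.16a and MACS2 per the submitters' processing notes. Their fold column is the authors' enrichment ratio, and their p and q columns are the authors' −log10 values; both served here to rank and select peaks inside each list. A peak counted at a gene end with an overlap of at least 1 base of a window of 1000 bases on each side.

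The test was the two-sided quasi-likelihood F test of edgeR 4.0.16 (R 4.3.3, robust fit, genotype as the only term) after filterByExpr and TMM scaling, with Benjamini-Hochberg adjustment and a threshold of 0.05. CPM use TMM-scaled library sizes; shares use all gene counts. The SE is the size of the log2 fold change over the root of F, and 95% intervals use the fit's t distribution. The deviation of each library uses log2 CPM with a prior count of 2. The 4 single values (3 shares and the open members) were compared by exact permutation in scipy 1.17.1. The scripts were tested on simulated data. Members are named if called, among the 6 highest per subunit, the 5 highest or lowest fold changes of at least 5 CPM, the 5 lowest levels, on chromosome 11, in a preset list of disease and stalk genes, with a listed paralog, or without a peak in any ATAC library, and of each pathway list its 2 of highest CPM; a few genes that these rules name are not reported here, though they stay in the counts and medians of their lists. The labels name 3 biological replicates of each genotype, each from pooled mice, and no batch. The p-values measure the spread between these libraries, which may be technical in part. The smallest chi-square per degree of freedom between any pair of libraries was 14.75, so none was treated as a duplicate. DESeq2 1.42.0, limma-voom (limma 3.58.1), other scalings and filters, added pseudogene counts, a replicate block and left-out libraries were the alternatives; the 2 libraries left out together, the start-only window and the share without Rpl4 were added after seeing the data. Intervals cover the spread between libraries only.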

Additional observations from a re-analysis of the deposited data

How the results depend on the processing

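Under none of the alternatives was a member called, and the fewest and most members with an unadjusted p under 0.05 were 3 without Control 2 (3.95%, against 8.13% of all tested genes) and 17 without Control 1 (22.4%, against 19.7%). The members' median lay between -0.05 and 0.29. Over all tested genes, 70 were called by edgeR, 467 by DESeq2, 42 by limma-voom, 576 with no filter on low counts, 519 without Control 1, 161 without Control 3, 46 without Control 2, 24 without Kdm6b-KO 2, 20 without Kdm6b-KO 3 and 394 without Control 1 and Kdm6b-KO 1 together.

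Same-numbered libraries' deviations correlated at 0.03, 0.16 and -0.13 over all tested genes, and at 0.15, 0.07 and -0.09 over members. Differently numbered libraries gave -0.20 to 0.13 over all tested genes and -0.20 to 0.11 over members. With 3 libraries per group these values cannot decide whether the replicate numbers mark pairs. With the number as a replicate block, 88 genes and 0 members were called, the members' median was 0.09, and the log2 fold change of Rpl10 was -0.021.

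Of 43 named members, 18 had a log2 fold change that changed sign in at least 1 alternative; none was past the threshold and the largest of them was 0.30 in size. The changed values were as follows: with DESeq2, Rpl10 -0.010; with limma-voom, Rpl10 -0.13 and Rpl13a 0.034; with library totals, Rpl13a 0.10, Rpl15 0.14, Rpl24 0.047, Rpl3 0.062 and Rpsa 0.12; with no filter beyond 1 count, Rpl15 0.030 and Rpsa 0.0025; at 1 CPM or more in all 6 libraries, Rpl10 -0.0033; with named pseudogenes added, Rpl10 -0.080, Rpl17 -0.17, Rpl36a -0.19 and Rpsa 0.069; without Control 1 and Kdm6b-KO 1 together, Rpl10 -0.35, Rpl13a 0.22, Rpl15 0.060 and Rpl3 0.033. With 1 library left out at a time, the ranges were Rpl10 -0.20 to 0.25, Rpl11 -0.0027 to 0.19, Rpl13a -0.23 to 0.21, Rpl14 -0.11 to 0.35, Rpl15 -0.074 to 0.066, Rpl17 -0.012 to 0.37, Rpl23 -0.53 to 0.053, Rpl24 -0.41 to 0.24, Rpl26 -0.13 to 0.36, Rpl3 -0.18 to 0.047, Rpl32 -0.028 to 0.35, Rpl36a -0.12 to 0.25, Rplp1 -0.0081 to 0.39, Rps14 -0.10 to 0.22, Rps19 -0.38 to 0.10, Rps2 -0.31 to 0.34, Rps21 -0.080 to 0.42 and Rpsa -0.35 to 0.20. Their cause was not tested.

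With 1 library left out at a time, the differences of Kdm6b-KO minus Control in percentage points were -0.945 to 0.0833 for the small-subunit share, -0.00652 to 0.00134 for the pseudogene share, 0.0923 to 0.519 for the members' share of gene counts.  The small-subunit and pseudogene differences changed sign. The difference in open members, 6bKO minus Control, was 1.0 with windows of 5 kb, 0.333 at a −log10 q of at least 5, 0.0 with the start alone and -2.5 to 1.83 with 1 library left out. 

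In these libraries 3 reads correspond to 0.148 to 0.461 CPM. Members under 10 CPM had a median SE of 0.405 on the log2 scale, against 0.234 for those of at least 100 CPM. For the former, only larger differences are therefore detectable. The part of counting depth in this was not tested, and Rpl13 (45.8 CPM) and Rpl38 (38.8 CPM) had an SE of 0.558 and 0.502. With 3 pools per genotype no interval here is narrow. Reads shared with pseudogenes may bear on members with close copies, which was not tested.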
